A study of Mus musculus with 12 samples.

Results

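Cells of an epithelium are held together by tight junctions, which seal the space between neighbours, by adherens junctions and desmosomes, which bind cells through cadherins, and by gap junctions, which let small molecules pass through connexins. The claudins set which ions a tight junction lets through, the desmosomal cadherins are tied to the keratin filaments by plakophilins, plakoglobin and desmoplakin, and the polarity proteins of the PAR and Lethal giant larvae families separate the apical from the lateral membrane. Bile duct cells and their precursors are such an epithelium. The genes described here are those whose annotated mouse symbol has the form Cldn, Cdh, Dsg, Dsc, Pkp, Tjp, Pard, Gja or Gjb with a digit, together with Jup, Ocln, Cgn, F11r, Llgl2, Esrp1 and Esrp2. The rule found 84 genes, measured by 158 probes, among 19057 genes with a symbol on the array. Dsp, which the rule also names, was not analysed here.

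The RNA came from mouse hepatic progenitor cells, liver epithelial precursors sorted as live cells positive for EpCAM, CD24 and CD133 and negative for CD45, CD31 and TER119, and then cultured. The medium of all 3 groups held 10% fetal bovine serum, 100 nM dexamethasone, IL-6, HGF and EGF at 10 ng/mL each, among other supplements. After 24 hours without serum the control cells received a vehicle of 0.1% bovine serum albumin, and the other groups recombinant IL-4 or recombinant IL-13 at 50 ng/mL, with 4 arrays in each group. The labels name no strain, genotype, age or number of donor animals and no length of cytokine exposure. Whether a group's 4 arrays stand for 4 cultures or animals is not stated either, so p-values reflect the spread among arrays alone, and that spread may be technical.

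Between 18469 and 19869 probes were detected on an array, and 30 to 37 of the 84 junction genes. The number of arrays limits the precision. Each of 2 chips carried 2 control, 2 IL-4 and 2 IL-13 arrays, always at the same positions, which therefore cannot be told apart from the groups. Of 7 measured markers of progenitor and duct cells, Krt19, Krt7, Sox9 and Cd24a were detected on 12 arrays and Prom1 on 5, whereas Cftr and the gate gene Epcam were detected on 0. The hepatocyte gene Alb and the endothelial gene Pecam1 were also detected on 0 arrays. Of the other hepatocyte genes, Hnf4a, Ttr and Serpina1a were detected on 12 arrays, Apoa1 on 10, and Cyp3a11 and Cps1 on 0. The mesothelial genes Msln and Upk3b were detected on 12 arrays and Lrrn4 on 0. The mean log2 signal of 3 hemoglobin genes was 8.95 on IL-4 4, 6.77 on IL-4 2 and 5.95 on control 4, against 4.40 to 5.36 on the other 9 arrays, so results are also given without these 3 arrays.

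A gene counted as detected if its brightest probe, by the mean over all arrays, had a detection p below 0.05 on 4 or more of the 12 arrays. This held for 35 of the 84 junction genes, 24 of them on 12 arrays. Another 14 were detected on 1 to 3 arrays and 35 on 0. In control cells alone, 25 genes were detected on all 4 arrays and 44 on none. Other probes of a detected gene were not always detected. A further probe of Cdh1 and of Cldn34c1 was detected on 0 arrays, and those of Cldn15 on 3 and 0. Cdh23, Dsg2, Pard3, Pard3b and Pkp4 also had further probes detected on fewer than 4 arrays. A probe without signal does not show that the transcript was absent, and Epcam, the gene of a sorted antigen, had none.

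**Figure D1:**
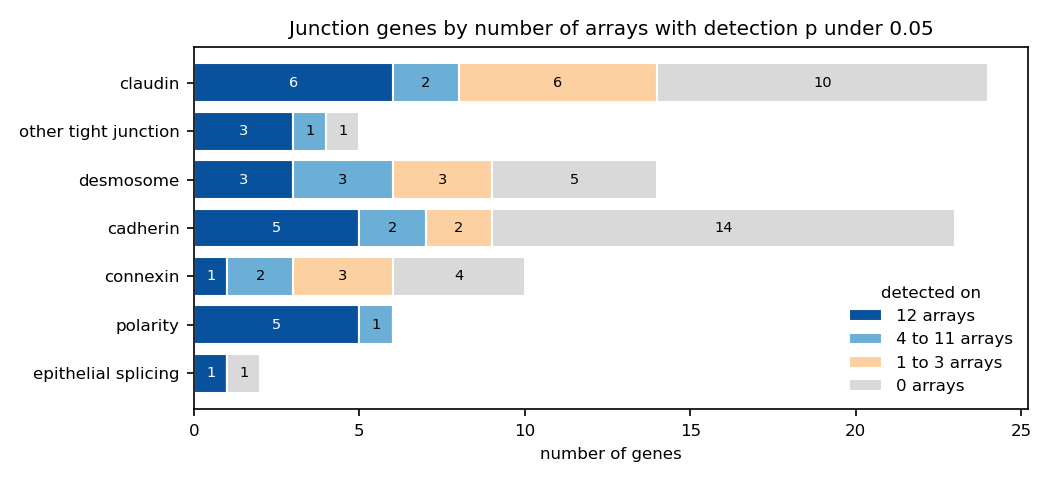
Number of junction genes (horizontal axis) in each role (vertical axis), divided by the number of the 12 arrays on which the gene's brightest probe passed a detection p of 0.05. All 6 polarity genes were detected on 4 or more arrays, against 8 of 24 claudins and 7 of 23 cadherins.

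The detected genes came from every role. Of the 24 claudins 8 were detected. Cldn2, which forms pores for cations and water, Cldn6, a claudin of embryonic epithelia, and Cldn9, Cldn12, Cldn15 and Cldn34c1 were detected on 12 arrays, and the barrier-forming Cldn4 on 11 and Cldn7 on 10. Cldn1, Cldn10 and Cldn34b4 were seen on 2 arrays and Cldn16, Cldn17 and Cldn18 on 1, and the other 10 on 0, namely Cldn3, the endothelial claudin gene Cldn5, Cldn8, Cldn11, Cldn13, Cldn14, Cldn19, Cldn23, Cldn34b2 and Cldn34b3. Of the 5 remaining tight junction genes, F11r, which encodes the junctional adhesion molecule JAM-A, and the scaffold genes Tjp1 and Tjp3 were detected on 12 arrays and Cgn, which encodes the plaque protein cingulin, on 7. Ocln, the gene of occludin, was detected on 0.

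Of 14 desmosome genes 6 were detected. These were Dsg2, the desmosomal cadherin of simple epithelia, Pkp2 and Pkp4 on 12 arrays, Jup, which encodes plakoglobin, on 7, and Pkp1 and Pkp3 on 6. The cadherins found in stratified epithelia (Dsg3, Dsg4, Dsc1, Dsc3) and Dsc2 were detected on 0 arrays, and Dsg1a, Dsg1b and Dsg1c, whose near-identical transcripts can bind each other's probes, on 2 each. Among 23 classical and related cadherins, Cdh1 (E-cadherin), Cdh2 (N-cadherin), Cdh6, Cdh13 and Cdh16 were detected on 12 arrays, Cdh17 on 7 and Cdh23 on 4. Cdh5, the endothelial cadherin gene, was seen on 2 arrays and Cdh24 on 1, and 14 cadherin genes on 0. These were Cdh3, Cdh4, Cdh7, Cdh8, Cdh9, Cdh10, Cdh11, Cdh12, Cdh15, Cdh18, Cdh19, Cdh20, Cdh22 and Cdh26.

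Of 10 connexin genes, Gja1 was detected on 12 arrays, Gjb5 on 5 and Gja6 on 4. The hepatocyte connexin gene Gjb1 was seen on 2 arrays, Gja5 on 2 and Gjb2 on 1, and Gja3, Gja4, Gja10 and Gjb6 on 0. Every polarity gene was detected, Pard3, Pard3b, Pard6a, Pard6g and Llgl2 on 12 arrays and Pard6b on 7. Esrp2, an RNA-binding regulator of splicing in epithelial cells, was detected on 12 arrays and its relative Esrp1 on 0.

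Some of these genes lie next to each other on the chromosome. In the RefSeq annotation (GRCm38.p6), 23 pairs of the 84 genes are neighbours with no other protein-coding gene between them. Both genes were detected in 1 pair, Cldn6 and Cldn9 on chromosome 17. In 5 pairs 1 gene was detected, such as Cdh1 without Cdh3, Cldn4 without Cldn3 and Dsg2 without Dsg3, and in 17 pairs neither. Unlike Cdh1 and Dsg2, Cldn4 was near background, at a mean log2 signal of 4.72 in control against 4.22 for Cldn3.

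Of the 35 detected genes, IL-4 changed 1 and IL-13 changed 5, with a fold change of at most 1.54. Pkp2 rose with both cytokines. With IL-13, Cldn6 fell and Cdh6, Llgl2 and Esrp2 rose. Over all 10453 genes tested, 3.47% passed an adjusted p of 0.05 in limma with IL-4 and 5.73% with IL-13, against 2.86% and 14.3% of the detected junction genes. The count with IL-4 was thus near the background. Of all genes, 2.15% rose and 1.32% fell with IL-4, and 3.5% rose and 2.23% fell with IL-13, where 4 of the 35 junction genes rose and 1 fell. This split varied with the arrays used. Without control 4 there were 3 rises and 3 falls with IL-13, and without the 3 hemoglobin-rich arrays 2 and 3. Leaving out control 4 and IL-4 2 gave 4 and 3, and leaving out IL-13 2 or IL-13 3 gave 2 and 1. Over all genes, rises with IL-13 outnumbered falls in each of these fits. They were 366 and 233 with all arrays, 311 and 222 without control 4, and 305 and 205 without the 3 hemoglobin-rich arrays. Without control 4 and IL-4 2 they were 314 and 238, without IL-13 2 266 and 144, and without IL-13 3 266 and 148. Without adjustment, 4 of the 35 had a p under 0.05 with IL-4 and 10 with IL-13, against 14.1% and 17.8% of all genes. The median log2 difference of the detected junction genes was -0.04 with IL-4 and -0.02 with IL-13, and that of all genes -0.01 in both comparisons. Both comparisons share the same 4 control arrays. In this bulk RNA, a change in the share of cells that express a gene and a change in the RNA per cell cannot be told apart.

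**Figure D2:**
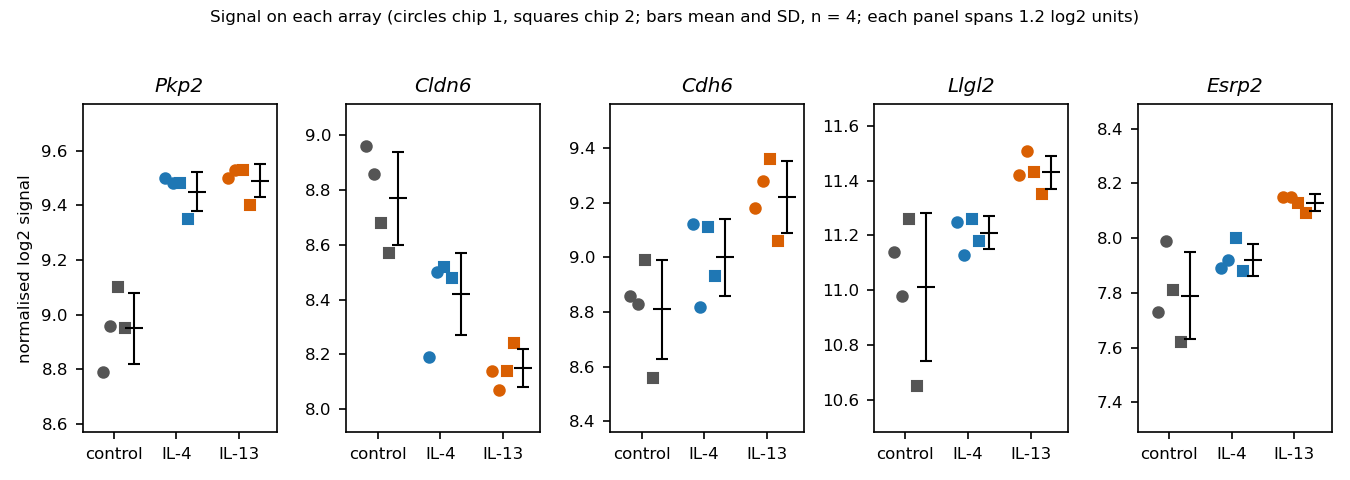
Normalised log2 signal (vertical axis) of the 5 changed genes on each array, by group, with circles for chip 1, squares for chip 2 and black bars for the mean and SD of 4 arrays. The Pkp2 values of both cytokine groups lie above all control values, and the Cldn6 values of both below them. The IL-13 values of Cdh6, Llgl2 and Esrp2 lie above all control values.

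Pkp2 encodes plakophilin 2, the armadillo-repeat protein that ties the desmosomal cadherins to the cytoskeleton in simple epithelia and heart muscle. Its normalised log2 signal was 8.79, 8.96, 9.10 and 8.95 on the control arrays 1 to 4. It was 9.50, 9.48, 9.48 and 9.35 with IL-4 and 9.50, 9.53, 9.53 and 9.40 with IL-13. Every cytokine array was above every control array, and the cytokine groups lay on top of each other. The rise was 1.41-fold with IL-4 (log2 difference 0.50 ± 0.08, SE; limma adjusted p = 0.000564) and 1.45-fold with IL-13 (0.54 ± 0.08; adjusted p = 0.000182). The difference between the cytokines was 0.04, with a 95% confidence interval from -0.12 to 0.20.

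Another 2 Pkp2 probes were detected on 12 arrays. In a fit of all probes they were higher with IL-13 by 0.38 (adjusted p = 0.0102) and 0.46 (0.00152), and with IL-4 by 0.29 (0.0794) and 0.43 (0.00405), so that 1 of the 3 probes did not pass with IL-4. Within chip 1 the log2 difference was 0.61 with IL-4 and 0.64 with IL-13, within chip 2 0.39 and 0.44, where neither passed (adjusted p = 0.308 and 0.124). With the chip as a block it was 0.50 (adjusted p = 0.00092) and 0.54 (0.000319). Without the 3 hemoglobin-rich arrays the rise was as large, at 0.54 for IL-4 (adjusted p = 0.0128) and 0.54 for IL-13 (0.00148). The other plakophilins, Pkp1, Pkp3 and Pkp4, had log2 differences between -0.11 and 0.10 and did not pass.

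Cldn6 encodes a claudin found in embryonic epithelia and pluripotent cells and largely silent in adult tissues. Its log2 signal was 8.96, 8.86, 8.68 and 8.57 on control arrays 1 to 4. With IL-4 it was 8.19, 8.50, 8.52 and 8.48, and with IL-13 8.14, 8.07, 8.14 and 8.24. All 8 cytokine arrays were below all 4 control arrays. IL-13 lowered it 1.54-fold (log2 difference -0.62 ± 0.09; limma adjusted p = 0.000339). With IL-4 the log2 difference was -0.35 ± 0.09, with an adjusted p of 0.0514. This value passed in 14 of 31 alternative settings and stayed above the threshold in 17. The difference of IL-13 from IL-4 was -0.28 (95% confidence interval -0.48 to -0.08), which did not pass over all genes (adjusted p = 0.483).

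The control arrays of chip 1 had higher Cldn6 signals than those of chip 2. Within chip 1 the log2 difference was -0.80 with IL-13 (adjusted p = 0.00407) and -0.56 with IL-4 (0.0333), and within chip 2 -0.44 (0.103) and -0.13 (0.865). With the chip as a block it was -0.62 (adjusted p = 0.000636) and -0.35 (0.0601). Without the 3 hemoglobin-rich arrays it was -0.69 with IL-13 (adjusted p = 0.000521) and -0.48 with IL-4 (0.0493). The neighbouring gene Cldn9 had a log2 difference of 0.06 with IL-13 (95% confidence interval -0.13 to 0.25) and 0.02 with IL-4 (-0.18 to 0.21). Cldn9 was dim, with intensities from 123 to 138 against 358 to 640 for Cldn6, and the normalisation pulls differences of dim probes toward 0.

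Cdh6 encodes a type II cadherin known from the developing kidney. Its log2 signal was 8.86, 8.83, 8.99 and 8.56 on control arrays 1 to 4. It was 9.12, 8.82, 9.11 and 8.93 with IL-4 and 9.18, 9.28, 9.36 and 9.06 with IL-13. The IL-13 arrays lay above all control arrays, while the IL-4 arrays overlapped with both groups. The rise with IL-13 was 1.33-fold (log2 difference 0.41 ± 0.10; limma adjusted p = 0.0191). With IL-4 the difference was 0.19 ± 0.10 (adjusted p = 0.439), and 0.10 without control 4. Within chip 1 and chip 2 the IL-13 difference was 0.39 and 0.44 (adjusted p = 0.146 and 0.249), with the chip as a block 0.41 (0.0256), and without the hemoglobin-rich arrays 0.33 (0.0427). The call was lost without control 4 (adjusted p = 0.0578), IL-13 2 (0.0614) or IL-13 3 (0.0727).

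Of the 5 changed genes, Cldn6 and Cdh6 were matched in RefSeq's promoter table (GRCm38.p6), each with a stretch from 250 bases before to 50 after the start of transcription. Both are shown because no other changed gene was found in that table. The 2 genes moved in opposite directions with IL-13. The Cdh6 promoter is at chr15:13173626-13173925 on the minus strand and the Cldn6 promoter at chr17:23679115-23679414 on the plus strand. Capitals mark the motif CANNTG, the general form of the E-box. The Snail, ZEB and TWIST families, which can repress cadherin and claudin genes, bind only certain forms of it.
Cdh6: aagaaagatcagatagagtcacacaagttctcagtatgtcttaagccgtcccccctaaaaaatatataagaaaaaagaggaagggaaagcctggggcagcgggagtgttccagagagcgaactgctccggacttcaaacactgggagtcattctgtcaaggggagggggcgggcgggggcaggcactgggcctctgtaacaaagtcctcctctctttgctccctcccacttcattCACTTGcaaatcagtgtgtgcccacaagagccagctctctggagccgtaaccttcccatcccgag
Cldn6: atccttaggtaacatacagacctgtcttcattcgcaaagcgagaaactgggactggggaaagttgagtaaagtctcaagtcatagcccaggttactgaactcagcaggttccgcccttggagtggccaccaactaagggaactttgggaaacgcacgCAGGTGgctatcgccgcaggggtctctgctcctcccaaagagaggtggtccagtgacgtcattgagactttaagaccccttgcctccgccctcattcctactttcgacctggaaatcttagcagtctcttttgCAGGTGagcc
The Cdh6 stretch has 1 such motif, starting 15 bases before the start of transcription, and the Cldn6 stretch has 2, starting 93 bases before and 40 bases after it. The motif reads the same on both strands in its fixed bases, and 72.3% of all 32851 promoters hold it. Both Cldn6 sites read CAGGTG, which on either strand is in 20.2% of promoters, a motif chosen after the sites were seen. The Cdh6 site reads CACTTG. The palindromes of TTC and GAA separated by 4 or by 3 bases, the kind bound by STAT6 and other STAT factors, were searched on both strands and are in 6.95% and 8.3% of promoters. They are in neither of these stretches, and no site overlapped another. These matches describe letters and not binding.

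Llgl2 encodes a Lethal giant larvae protein, a basolateral polarity determinant that opposes the PAR complex. Its log2 signal was 11.14, 10.98, 11.26 and 10.65 on control arrays 1 to 4. It was 11.25, 11.13, 11.26 and 11.18 with IL-4 and 11.42, 11.51, 11.43 and 11.35 with IL-13. All IL-13 arrays lay above all control and IL-4 arrays, and control 4 was the lowest of the 12. The rise with IL-13 was 1.34-fold (log2 difference 0.42 ± 0.10; limma adjusted p = 0.0204), and the difference with IL-4 was 0.20 ± 0.10 (adjusted p = 0.412), and 0.08 without control 4. Within chip 1 and chip 2 the IL-13 difference was 0.41 and 0.44 (adjusted p = 0.0834 and 0.290) and with the chip as a block 0.42 (0.0257). The call was lost when the 3 hemoglobin-rich arrays were left out (0.30; adjusted p = 0.0537), with scaling to the 75th percentile (0.0523), and without control 2 (0.0517), IL-13 2 (0.0678) or IL-13 3 (0.0514).

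The partners of the PAR complex did not pass. Pard6g, an adaptor of the complex, differed from control by -0.30 ± 0.09 (log2) with IL-4 (limma adjusted p = 0.0780) and -0.22 ± 0.09 with IL-13 (0.171). Without control 4 it passed in both comparisons, at -0.37 (adjusted p = 0.0151) and -0.30 (0.0442). The scaffold gene Pard3 and Pard3b, Pard6a and Pard6b had log2 differences between -0.11 and 0.13.

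Esrp2 encodes a splicing regulator that keeps transcripts, such as that of the receptor gene Fgfr2, in their epithelial forms. Its log2 signal was 7.73, 7.99, 7.81 and 7.62 on control arrays 1 to 4. It was 7.89, 7.92, 8.0 and 7.88 with IL-4 and 8.15, 8.15, 8.13 and 8.09 with IL-13. The IL-13 arrays lay close together and above all other arrays. The rise with IL-13 was 1.27-fold (log2 difference 0.34 ± 0.08; limma adjusted p = 0.0144), and the difference with IL-4 was 0.14 ± 0.08 (adjusted p = 0.490). A further Esrp2 probe, detected on 12 arrays, gave 0.10 with IL-13 (adjusted p = 0.677 in the fit of all probes), and with the mean of both probes the call was lost (0.22; adjusted p = 0.121). Within chip 1 and chip 2 the IL-13 difference was 0.29 and 0.40 (adjusted p = 0.279 and 0.168) and with the chip as a block 0.34 (0.0155). It did not pass without the 3 hemoglobin-rich arrays (0.29; adjusted p = 0.0587).

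**Figure D3:**
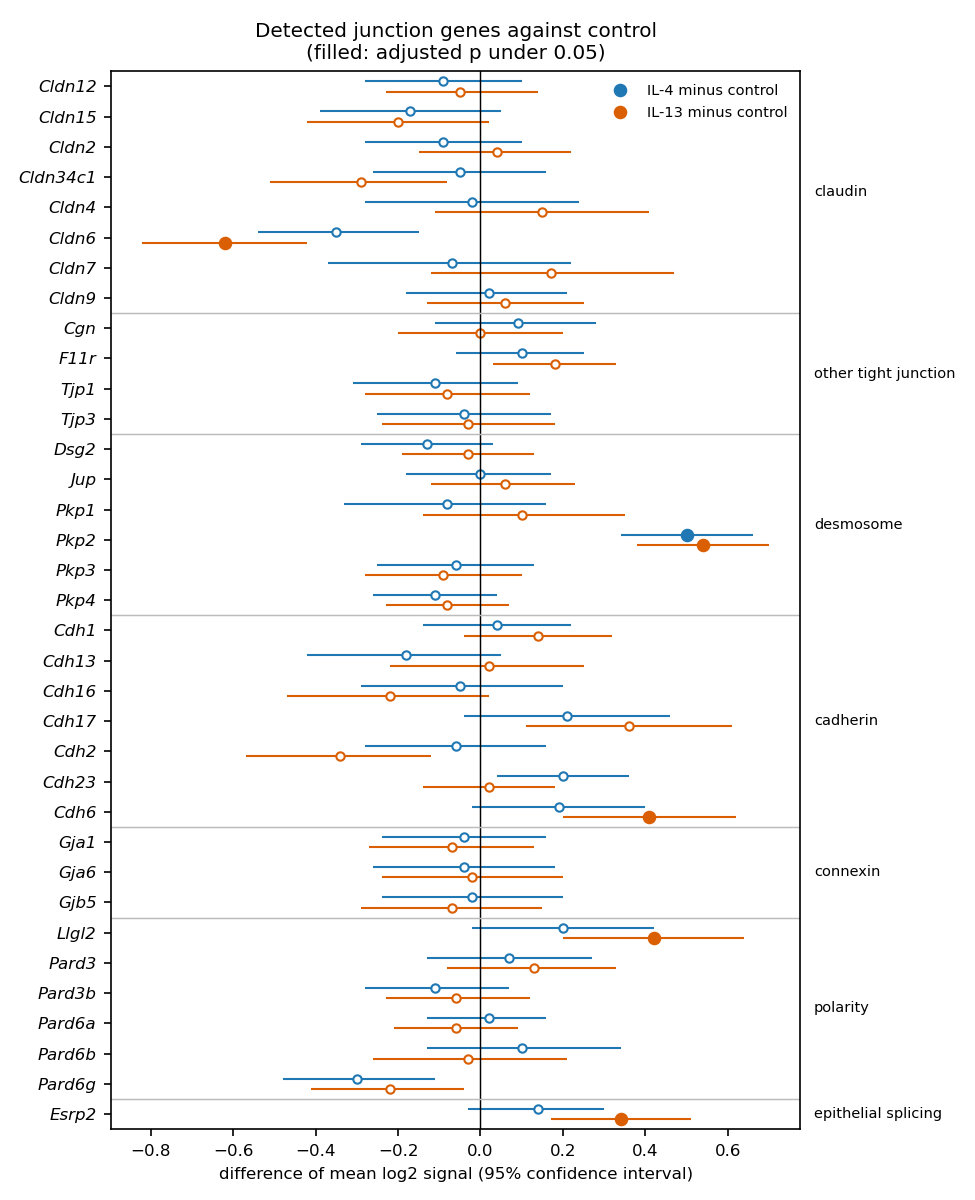
Difference of mean log2 signal from control (horizontal axis) for the 35 detected junction genes by role (vertical axis), IL-4 in blue and IL-13 in orange, with 95% confidence intervals and filled points where the limma adjusted p was under 0.05. Pkp2 is filled for both cytokines, and Cldn6, Cdh6, Llgl2 and Esrp2 for IL-13.

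Genes that define epithelial contact did not pass, and their intervals are given. Cdh1 had log2 differences of 0.04 with IL-4 (95% confidence interval -0.14 to 0.22) and 0.14 with IL-13 (-0.04 to 0.32). Cldn2 had differences of -0.09 (-0.28 to 0.10) and 0.04 (-0.15 to 0.22), and a further Cldn2 probe of -0.02 and 0.03. Dsg2 had differences of -0.13 (-0.29 to 0.03) and -0.03 (-0.19 to 0.13). Tjp1 had -0.11 (-0.31 to 0.09) and -0.08 (-0.28 to 0.12), and Gja1, the main connexin gene of many epithelia and of fibroblasts, -0.04 (-0.24 to 0.16) and -0.07 (-0.27 to 0.13).

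Other genes had larger differences with IL-13 that did not pass the threshold. Cdh2 was at 5.23, 5.27, 5.24 and 5.29 on the control arrays and at 5.11, 4.98, 4.74 and 4.83 with IL-13, so that these groups did not overlap. Its log2 difference was -0.34 ± 0.11 (limma adjusted p = 0.0687). It passed with the chip as a block (adjusted p = 0.0426) and with only the 8 arrays compared (0.0331), but a further Cdh2 probe gave 0.15 (0.706 in the fit of all probes). Cdh17, an intestinal cadherin gene, was detected on 1 control, 2 IL-4 and 4 IL-13 arrays and had a log2 difference of 0.36 ± 0.12 with IL-13 (adjusted p = 0.0940). Cldn34c1 had -0.29 ± 0.10 (adjusted p = 0.114), F11r 0.18 ± 0.07 (0.184), Cldn15, a cation pore claudin gene, -0.20 ± 0.10 (0.345) and Cdh16, a kidney cadherin gene, -0.22 ± 0.12 (0.326). Cdh16 passed with IL-13 without control 4 (-0.37; adjusted p = 0.0152) and without the 3 hemoglobin-rich arrays (-0.37; 0.0277). A dim further probe of Tjp3, detected on 4 arrays, was higher with IL-13 by 0.30 (adjusted p = 0.0360 in the fit of all probes), while the brighter Tjp3 probe gave -0.03 (0.917). In all, the groups did not overlap for 6 of the 35 genes with IL-13 and for 2 with IL-4, where 10.9% and 8.44% of all genes had groups without overlap.

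**Figure D4:**
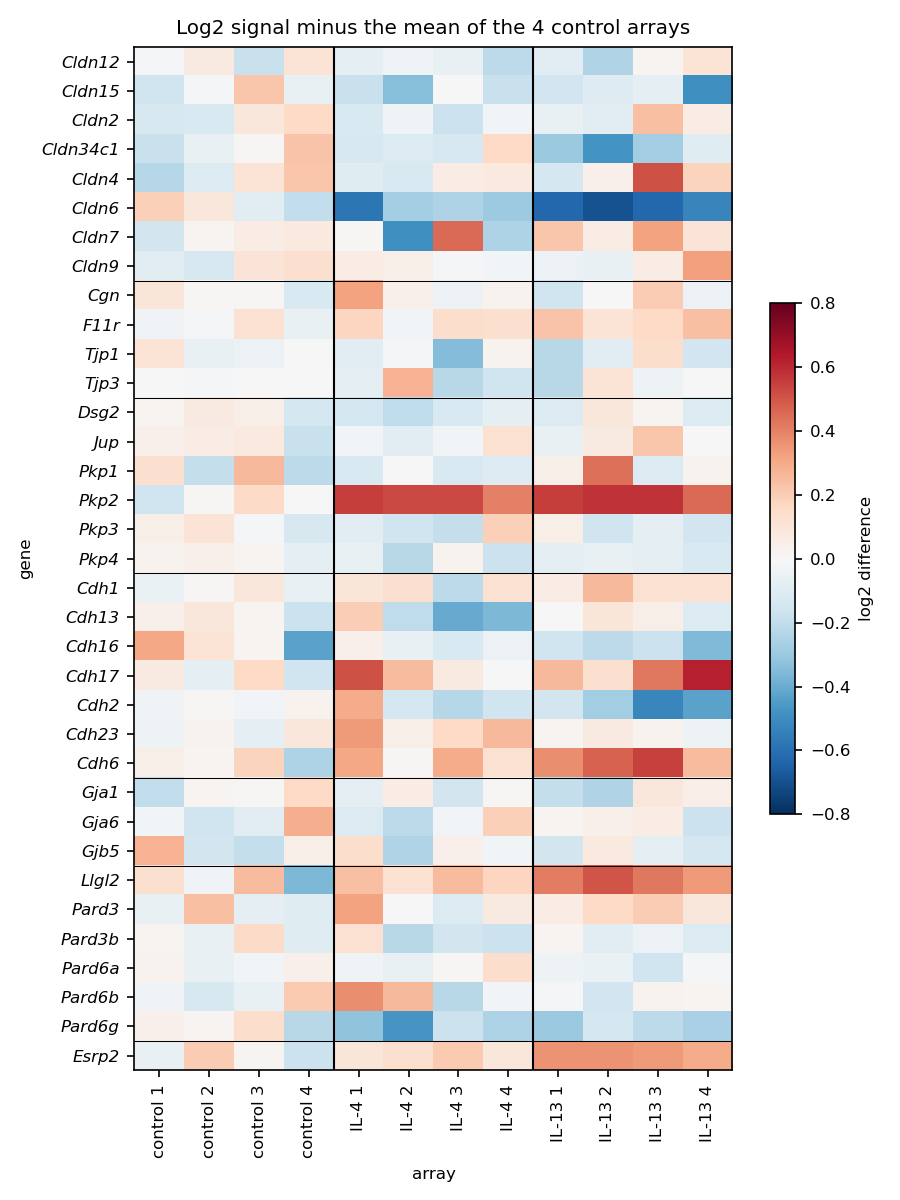
Log2 signal of each detected junction gene (rows, by role) on each array (columns) minus the mean of the 4 control arrays, in red where higher and blue where lower. The Pkp2 row is red on all 8 cytokine arrays and the Cldn6 row blue on all 8, and the Llgl2 and Cdh6 rows are bluest on control 4.

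For the remaining detected genes no difference from control passed. Cldn4, Cldn7, Cldn9, Cldn12, Cgn, Jup, Pkp1, Pkp3, Cdh13, Gja6 and Gjb5 had log2 differences from control between -0.18 and 0.17 with either cytokine, and adjusted p-values of 0.503 or more. Cdh23, the gene of a hair cell cadherin, was detected on 0 control, 3 IL-4 and 1 IL-13 arrays, with a log2 difference of 0.20 ± 0.08 with IL-4 (limma adjusted p = 0.196).

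Between the cytokines, 0 of the 35 junction genes and 0 of all 10453 genes (0%) passed in limma. Without adjustment, 7 junction genes and 852 of all genes (8.15%) had a p under 0.05. The smallest p among the junction genes was that of Cldn6, given above. Cdh2 had a log2 difference of IL-13 from IL-4 of -0.28 (95% confidence interval -0.51 to -0.06; adjusted p = 0.537), and Esrp2 was higher by 0.21 (95% confidence interval 0.04 to 0.37; adjusted p = 0.542). The cytokine groups did not overlap for 3 of the 35 genes, against 5.31% of all genes. The changes of Cldn6, Cdh6, Llgl2 and Esrp2 were larger with IL-13 than with IL-4 in the means, and none of these differences passed.

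Other genes of cell contact were counted in lists. Of 16 adherens junction partners 11 were measurable and 0 passed with either cytokine (median log2 difference -0.03 with IL-4 and 0.00 with IL-13). Among them, Ctnnb1, which encodes beta-catenin, had a difference of -0.03 with IL-4 and 0.19 with IL-13 (limma adjusted p = 0.926 and 0.241). Of 28 further tight junction and polarity genes 19 were measurable, and Cldnd1, a claudin domain gene, rose with IL-4 (0.41 ± 0.08; adjusted p = 0.00335) and IL-13 (0.42 ± 0.08; 0.00210). Of 11 hemidesmosome genes 9 were measurable and 0 passed. Over all genes 3.47% passed with IL-4 and 5.73% with IL-13, so counts of 0 or 1 in lists this short are near that share.

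Of 10 keratins and plaque linkers 9 were measurable, and the changes ran in both directions. Krt18, a keratin of simple epithelia, rose by 0.39 ± 0.08 with IL-4 (limma adjusted p = 0.0112) and 0.46 ± 0.08 with IL-13 (0.00204). Krt7, a duct keratin, fell (-0.36 with IL-4 and -0.44 with IL-13; adjusted p = 0.00833 and 0.00111), as did Ppl, which encodes the desmosome and cornified envelope linker periplakin (-0.43 and -0.38; adjusted p = 0.00435 and 0.00857). Krt20 fell with IL-13 (-0.49; adjusted p = 0.00808).

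Of 26 genes tied to epithelial or mesenchymal state 19 were measurable. The epithelial transcription factor genes Elf3 and Klf4 rose with both cytokines, Elf3 by 1.67 and 1.77 and Klf4 by 0.68 and 0.78 (IL-4 and IL-13; limma adjusted p at most 0.00053), and Klf5 rose with IL-13 (0.48; adjusted p = 0.0240). The epithelial regulator genes Grhl1 (0.01 with IL-4 and 0.03 with IL-13), Ovol2 (-0.07 and -0.03) and Rbm47 (0 and 0.04) did not pass. The mesenchymal genes went both ways. Twist2 rose with both cytokines (0.39 and 0.41; adjusted p = 0.00937 and 0.00418), while S100a4 (-0.64; adjusted p = 0.000501) and Snai2, which encodes the E-box repressor SLUG, fell with IL-13 (-0.41; adjusted p = 0.0485). Zeb1 and Vim did not pass.

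Markers of other cell types were read beside these changes. Of 10 stellate cell and fibroblast markers 7 were detected on 0 arrays, and the mean over the list ran from 4.69 to 4.79 in control, 4.54 to 4.70 with IL-4 and 4.49 to 4.64 with IL-13. Acta2, detected on 12 arrays, fell by 2.07 with IL-13 (limma adjusted p = 6.54e-05). The other measurable markers of this list did not pass with IL-13, Des at 0.16 (adjusted p = 0.517) and Pdgfra at 0.05 (0.824). Both were near background in control, at mean log2 signals of 4.59 and 4.5 against 8.2 for Acta2, and could hardly show a fall. Of 8 endothelial markers 4 were detected on 0 arrays, and the list mean stayed between 4.32 and 4.41. The hepatocyte gene Apoa1 rose with both cytokines (0.76 and 1.23; adjusted p = 0.0374 and 0.000538), with a list mean of 5.66 to 5.70 in control, 5.62 to 6.0 with IL-4 and 5.77 to 6.06 with IL-13, and 3 of its 7 markers on 0 arrays. The hepatocyte genes Ttr, Hnf4a and Serpina1a did not pass with either cytokine. Of 5 white blood cell markers Ptprc, the gene of CD45, was detected on 1 array and Cd14 and Csf1r on 12, with a list mean from 5.48 to 5.55 in control, 5.5 to 5.64 with IL-4 and 5.54 to 5.71 with IL-13. Of 3 mesothelial markers Msln rose with IL-13 (0.30; limma adjusted p = 0.0434), with a difference of 0.28 with IL-4 (0.0847). Upk3b went the other way without passing (-0.21 with IL-13 and -0.17 with IL-4; adjusted p = 0.309 and 0.501), and Lrrn4 was detected on 0 arrays. The mean of this list ran from 7.24 to 7.41 in control, 7.31 to 7.47 with IL-4 and 7.25 to 7.40 with IL-13. The part of these markers in the junction gene results was not tested.

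**Figure D5:**
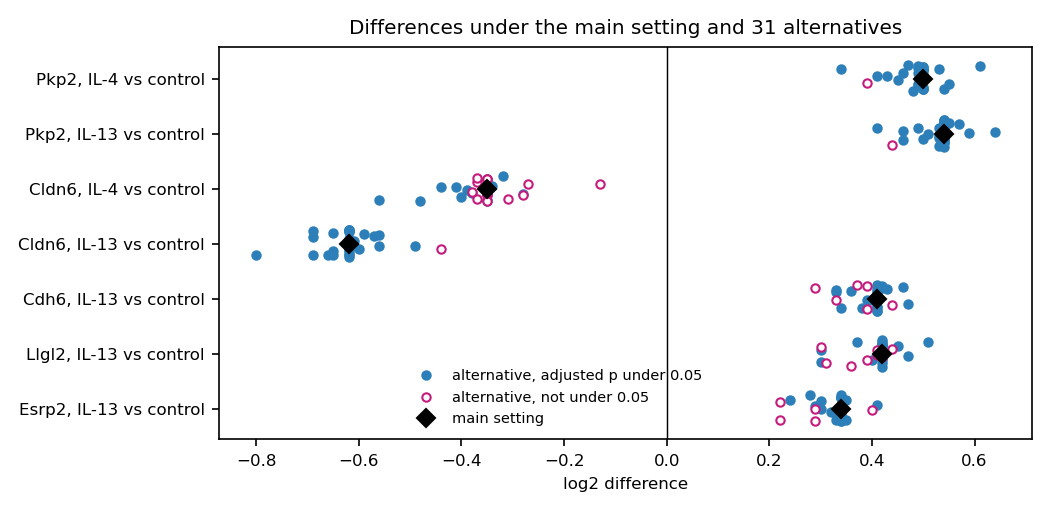
Log2 differences from control (horizontal axis) of the changed genes and of Cldn6 with IL-4 (vertical axis) as reported, in black diamonds, and in 31 alternative settings, as filled points where the adjusted p was under 0.05 and open points otherwise. Every point kept its side of 0, from 0.34 to 0.61 for Pkp2 with IL-4 and from -0.80 to -0.44 for Cldn6 with IL-13.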

How the data were processed

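The 12 RNA samples were hybridised to an Illumina mouse beadchip. Per the file headers, the deposited non-normalized table gives an intensity and a detection p-value per probe and array, and the submitters' processing notes name GenomeStudio 2011.1 without its settings. The deposited processed table holds log2 values, which equal the log2 intensities plus a constant per array that sets every median to 8.97.

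The intensities were normalised with neqc in limma 3.58.1 (R 4.3.3; offset 16, quantile normalisation, log2), and the offset pulls the differences of dim probes toward 0. Of 45281 probes 19915 had a detection p under 0.05 on at least 4 arrays, and 34885 had 1 gene symbol in the platform annotation (18 several, 10378 none), updated through the gene identifier. The probe of highest mean stood for a gene, which gave 10453 genes. All were fitted in 1 limma model over 12 arrays (lmFit, eBayes, two-sided, Benjamini-Hochberg adjusted p under 0.05). On simulated data, with 50 genes changed at each size, it recovered 42% of log2 changes of 0.32, 84% of 0.58 and 100% of 1. A gene that did not pass may therefore still have changed by a small amount. Of 12 pairs of same-numbered arrays 5 had residual correlations over 0.1 (range -0.15 to 0.21), so the numbers were not taken as pairs. Every junction gene is accounted for, those past the threshold array by array, other detected genes by their differences or the range of these, and undetected genes by name and arrays detected. From the related lists the genes past the threshold are named, and Ctnnb1, Grhl1, Ovol2, Rbm47, Zeb1 and Vim as well. The genes, lists and tests were chosen with earlier results of these data known. No correlation across arrays is given, since the arrays fall into groups. Alternatives varied the arrays, blocks, weights, threshold, filter, probe rule, scaling, offset, background correction and variance model.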

Additional observations from a re-analysis of the deposited data

Results flagged for a closer look

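In 8 of 105 groups of 4 arrays (35 detected genes, 3 groups) 1 array stood apart from the other three by a gap above Dixon's 95% critical share of the group's range. Chance gives about 1 such group in 20.

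In the IL-4 group, array 1 was the lowest for Cldn6 at 8.19, with the others from 8.48 to 8.52, and the highest for Cdh2 at 5.56, with the others from 5.03 to 5.12. Array 3 was the lowest for Cdh1 at 9.34, with the others from 9.65 to 9.68. Array 4, the one with the highest hemoglobin signal, was the highest for Cldn34c1 at 6.72, against 6.43 to 6.45, and the lowest for Pkp2 at 9.35, against 9.48 to 9.50. That value of Pkp2 was still above all control arrays.

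Among control arrays, control 4 was the lowest for Jup at 4.35, with the others from 4.57 to 4.61, and control 2 the highest for Pard3 at 5.17, against 4.83 to 4.87. IL-13 4 was the lowest for Gja6 at 4.36, against 4.55 to 4.59, a signal near background.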

How the results depend on the processing

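Across 31 alternatives the 6 calls of junction genes kept their direction. Pkp2 (either cytokine) and Cldn6 with IL-13 lost the threshold within chip 2 only, Esrp2 under 5 alternatives, Cdh6 under 6 and Llgl2 under 8. In the submitters' processed values Cdh6 (0.29), Llgl2 (0.31) and Esrp2 (0.22) did not pass, and 29.0% of all calls with IL-4 and 33.3% with IL-13 were higher, against 62.0% and 61.1%; the cause was not tested. Of 99 results that did not pass, 6 passed under an alternative.

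With IL-4 the number of junction genes called (1) was 2 without background correction, with normexp by maximum likelihood, offset 50, 75th percentile scaling, the submitters' values, detection on all 12 arrays, detection p under 0.01, the mean of all probes, trend and robust variances, chip 1 alone and without the 3 hemoglobin-rich arrays. It was 3 with array weights, an adjusted p under 0.1 and without control 4 and IL-4 2, and 0 in chip 2 alone. With IL-13 (5) it was 2 in the submitters' values, 2 in chip 1 and 0 in chip 2. With the replicate number as a block it was 1 with IL-4 and 7 with IL-13 (Cdh2 and Cldn34c1 added), and no call was lost. Leaving out each array in turn gave 1 to 3 with IL-4, highest without control 4, and 3 to 6 with IL-13, lowest without IL-13 2 or IL-13 3. Without the 3 hemoglobin-rich arrays, or control 4 and IL-4 2, alternatives chosen after the data were seen, 5 and 7 were called with IL-13. The 5 were 2 higher and 3 lower, with Llgl2 and Esrp2 lost and Cdh16 and Pard6g (-0.30) gained. The 7 were 4 higher and 3 lower, with Cdh16 and Pard6g gained and no call lost. With the chip as a block 6 were called with IL-13, Cdh2 added.

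Over all genes, 101 passed with IL-4 and 186 with IL-13 in chip 2, 243 with IL-13 in chip 1, where fewer arrays were fitted, and 190 with IL-4 without the hemoglobin-rich arrays. Leaving out each array gave 252 to 439 with IL-4, 410 to 594 with IL-13 and 0 to 1 between the cytokines, where 2 passed with trend and robust variances and 1 in chip 1. The junction genes detected numbered 35, 26 at a detection p under 0.01 and 24 on all 12 arrays. Signals near background limit Cdh17, Cdh23, Cldn4, Cldn7, Jup, Pkp1, Pkp3, Gja6, Gjb5, Cgn and Pard6b. Tjp3, Pard3, Pard3b, Cdh2, Cldn15 and Cldn9 were detected on 12 arrays but were also dim, with intensities between 105 and 138.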
